A study of Rattus norvegicus with 18 samples.

Results

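The genes described here were the very long ones of rat gastrocnemius, a muscle of the hind limb. A gene was included if it lay on chromosomes 1 to 20, if its genomic span from the first to the last annotated base was 250000 bases or more, and if it held 180 or more counts summed over the 18 libraries. These criteria were met by 395 of the 32883 genes in the table. Another 109 genes on these chromosomes were as long but fell under the count minimum. The rule itself used no measured difference between groups, but it was chosen with earlier results of these data known.

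Total RNA of the gastrocnemius was sequenced in 18 male Brown Norway rats (strain BN/SsNOlaHSD), with 6 rats in each of 3 groups. Young AL rats were 6 months old and fed ad libitum (AL), old AL rats were 28 months old and fed ad libitum, and old CR rats were 28 months old and had received calorie restriction (CR) at 55% of the AL intake since 2 months of age. The comparisons ask how ageing, and lifelong restriction in aged muscle, change the amount of RNA. Each library came from 1 rat and held between 17335401 and 27432767 counts.

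A gene's span is mostly intron, sequence that is transcribed and then removed by splicing, so a very long gene takes RNA polymerase far longer to copy than a short one. Many very long mammalian genes encode cell adhesion, synaptic and signalling proteins, and several of them lie in common fragile sites, where chromosomes break under replication stress. Long genes have been of interest in ageing because damage to DNA or slower elongation would be met more often along a longer template.

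The genes carried Ensembl identifiers without symbols, and 0 of the 395 identifiers matched an entry of the RefSeq tables used here. They are therefore given by their positions in the Rnor_6.0 build, with identifiers for 4 of them, and no protein function, promoter or cell type marker could be assigned. The labelled tissue was not checked against marker genes for the same reason.

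Among the 395 long genes the span ran from 250145 to 6361342 bases, with a median of 347172. Spans of 250 to 500 kilobases (kb) accounted for 310 genes, spans of 500 to 1000 kb for 75, and spans of 1000 kb or more for 10. Just inside the minimum lay chr2:18677220-18927365 with a span of 250145 bases, chr11:89009931-89260297 with 250366 and chr14:14439082-14689554 with 250472. Just outside it lay chr7:81342280-81592206 with 249926 bases, chr6:106721349-106971250 with 249901 and chr11:66316606-66566331 with 249725. The minimum thus cut through a continuous range of spans.

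The long genes differed from the 13803 genes of shorter span on the same chromosomes, held to the same count minimum, in more than span. Their summed exon length had a median of 4299 bases against 2317, and they had a median of 21 separate exon blocks against 9. Exons filled a median of 1.09% of the span of a long gene and 12.3% of the span of a shorter one. The largest gap between exon blocks had a median of 116655 bases in long genes and 6119 in shorter genes, yet it took a similar part of the span, with medians of 29.4% and 31.6%. In most long genes the larger part of the span thus lay outside the largest gap, while in 48 of them a single gap took more than 50% of the span.

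The long genes were spread over all 20 chromosomes, from 8 on chromosome 16 to 50 on chromosome 1. Relative to the genes that met the count minimum they were most frequent on chromosome 4, where they made up 4.91%, and least frequent on chromosome 10, at 1.43%, against 2.78% over all 20 chromosomes. They lay on the plus strand in 183 cases and on the minus strand in 212. Another annotated gene lay inside the span of 201 of them. Exon bases were shared with another gene in 23, of which 17 shared with a gene on the same strand and 6 with one on the opposite strand. Reads were counted without regard to strand, so reads of opposite-strand partners could not be told apart.

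The longest span needs a reservation. The gene at chr15:87506959-93868301 covered 6361342 bases, but 1 gap of 6137679 bases lay between 2 of its exon blocks, and 34 other annotated genes lay inside its span. Without that gap its span was 223663 bases, under the minimum. Its level was 62.4, 116 and 132 CPM (lowest, median and highest) in young AL rats. It was 63.1, 70.0 and 237 CPM in old AL rats and 77.3, 86.6 and 139 CPM in old CR rats. CPM here denotes the count of a gene scaled to the size of its library. The groups overlapped in this gene, and no comparison called it.

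The next 4 in order of span were all scarce. The gene at chr6:112133204-114067564 held 206 counts over all libraries, that at chr4:75325651-77023138 held 288, that at chr3:85421426-86819375 held 550 and that at chr7:86673993-88071472 held 258. Median levels in the 3 groups lay between 0.265 and 1.5 CPM for these 4 genes, and none was called.

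The long genes together held a small part of the RNA measured. Their share of all counts in a library was 1.24, 1.48 and 1.66% (lowest, median and highest) in young AL rats, 1.28, 1.33 and 2.06% in old AL rats, and 1.30, 1.36 and 1.52% in old CR rats. The 3 groups overlapped, and the highest value of the old AL group belonged to rat 8. A single gene, at chr1:25403390-25839345, held 10.7% of the counts on long genes, the top 5 held 25.9% and the top 50 held 66.3%. The share of counts was thus set by few genes, and medians over genes describe the others better.

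Per kilobase of exon, which allows levels to be compared between genes, the gene at chr1:25403390-25839345 stood first with a mean of 340 CPM per kb over all libraries. It was followed by chr4:60080538-60358562 with 192 CPM per kb and chr4:15710417-16130848 with 93.2. The next 3 were chr2:241909832-242184854 with 81.5, chr2:53150370-53413638 with 68.4 and chr10:8312961-8654892 with 62.8 CPM per kb. The remaining 4 of the first 10 were chr5:129448879-129738252 with 51.5, chr2:40554146-41464264 with 51.2, chr10:32062946-32471454 with 49.8 and chr10:75681393-76039964 with 47.6 CPM per kb. None of these 10 genes was called in any comparison.

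In the most abundant of them the level was 1194, 1536 and 2288 CPM in young AL rats (lowest, median and highest), 706, 1313 and 1910 CPM in old AL rats and 1388, 1697 and 2140 CPM in old CR rats. The groups overlapped widely. The nearest to a call among the 10 was chr2:40554146-41464264, a gene of 910118 bases, at 121, 211 and 299 CPM in young AL rats and 63.4, 126 and 148 CPM in old AL rats. Its log2 fold change of -0.87 (SE 0.25) had an adjusted p of 0.0524 in the quasi-likelihood test of edgeR, adjusted by the Benjamini-Hochberg method, just past the threshold.

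For the test, 393 of the 395 long genes had enough counts, together with 13501 shorter genes, among 14646 genes in all. The exceptions were chr10:84309430-84619050 with 488 counts and chr15:40000322-40428800 with 187. A gene was called when it changed by 1.5-fold or more with an adjusted p no higher than 0.05. In the old AL group against the young AL group 13 long genes were called, 7 higher and 6 lower in old AL rats. That was 3.31% of the long genes tested, beside 3.39% of all genes tested, 1.88% higher and 1.52% lower, and 3.47% of the shorter genes. Without rat 2 of the young AL group the split was uneven, with 24 calls, 6 higher and 18 lower. Beside it stood 4.37% of all genes in either direction, which were not split by direction in this setting. With all libraries long genes were thus called about as often as other genes.

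In the old CR group against the young AL group 6 long genes were called, 3 higher and 3 lower, or 1.53% of those tested beside 1.98% of all genes, 0.765% higher and 1.22% lower. In the old CR group against the old AL group 5 were called, 3 higher and 2 lower in old CR rats, or 1.27% beside 1.38% of all genes, 0.833% higher and 0.546% lower. Neither share stood above that of all genes. These counts and their direction depended on the libraries and the processing. In old CR against young AL rats the calls were 12 higher and 3 lower with DESeq2, 12 and 4 without rat 8, and 3 and 7 without rat 2. Rat 8, an old AL rat, belongs to neither group of that comparison. It enters only through the filter, scaling and estimate of spread that the fit shares over all 18 libraries. The shares of all genes called also rose, to 4.08% with DESeq2, 3.92% without rat 8 and 2.59% without rat 2. Calls over all genes were not split by direction in these settings, so the swings cannot be called particular to long genes. In old CR against old AL rats, scaling by total counts called 1 higher and 5 lower, beside 1.82% of all genes in either direction, and moved the median of all genes to -0.19 on the log2 scale. Without rat 8 and library 8828 of the old CR group, which stood apart from the other libraries as described further on, the 3 comparisons called 21, 13 and 11 long genes, beside 4.83%, 3.11% and 3.26% of all genes. With DESeq2 and all libraries they called 26, 15 and 12, beside 5.8%, 4.08% and 2.98%.

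At an unadjusted p under 0.05, 89 long genes differed between old AL and young AL rats, 32 higher and 57 lower, or 22.6% beside 22.3% of all genes. Over all genes 11.6% were higher and 10.6% lower by this rule, against 8.14% and 14.5% of the long genes. In the comparison of old CR with young AL rats, 69 long genes passed, 32 higher and 37 lower, or 17.6% beside 19.3% of all genes, of which 9.24% were higher and 10.1% lower. In that of old CR with old AL rats, 61 passed, or 15.5% beside 15.3% of all genes. They were 37 higher and 24 lower, or 9.41% and 6.11% of the long genes beside 7.67% and 7.59% of all genes.

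Groups whose 6 values did not overlap at all were found for 8 long genes between old AL and young AL rats, or 2.04% beside 2.4% of all genes, with 3 higher and 5 lower beside 1.28% and 1.11%. They were found for 5 long genes between old CR and young AL rats, or 1.27% beside 3.26%, with 2 higher and 3 lower beside 1.65% and 1.61%. Between old CR and old AL rats they were found for 8, or 2.04% beside 2.06%, with 4 higher and 4 lower beside 1.15% and 0.908%.

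The size of change was then compared with shorter genes at similar count level, because the log2 fold change varied with the count of a gene in these data. The shorter genes were weighted so that their totals were spread over 10 count classes as those of the long genes were. Between old AL and young AL rats the median log2 fold change was -0.04 over the long genes and 0.02 over the matched shorter genes, a difference of -0.06. Of the long genes, 182 of 393, or 46.3%, were above 0, against 52.5% of the matched shorter genes.

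For old CR against young AL rats the medians were 0.02 and 0.01, and 51.7% of the long genes and 52.0% of the matched shorter genes were above 0. Between old CR and old AL rats the medians were 0.05 and -0.02, a difference of 0.08, with 220 of the 393 long genes, or 56.0%, above 0 and 46.3% of the matched shorter genes. The 3 comparisons share groups of rats, so a low value in the old AL group enters the first and the last of them with opposite sign.

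The same difference was then set out per library. For each library the median deviation of the long genes from their mean log2 CPM was taken, less that of the matched shorter genes. It ran from -0.12 to 0.18 in young AL rats (median 0.02), from -0.17 to 0.08 in old AL rats (median -0.06) and from -0.12 to 0.11 in old CR rats (median 0.01). The groups overlapped, and the pooled SD within groups was 0.0999. The differences between groups depended on single rats. Without rat 8 that between old AL and young AL rats was -0.11 and that between old CR and old AL rats 0.11, and without rat 4 the former was -0.01. No p is given for this summary, since it is a score over genes chosen together.

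**Figure D1:**
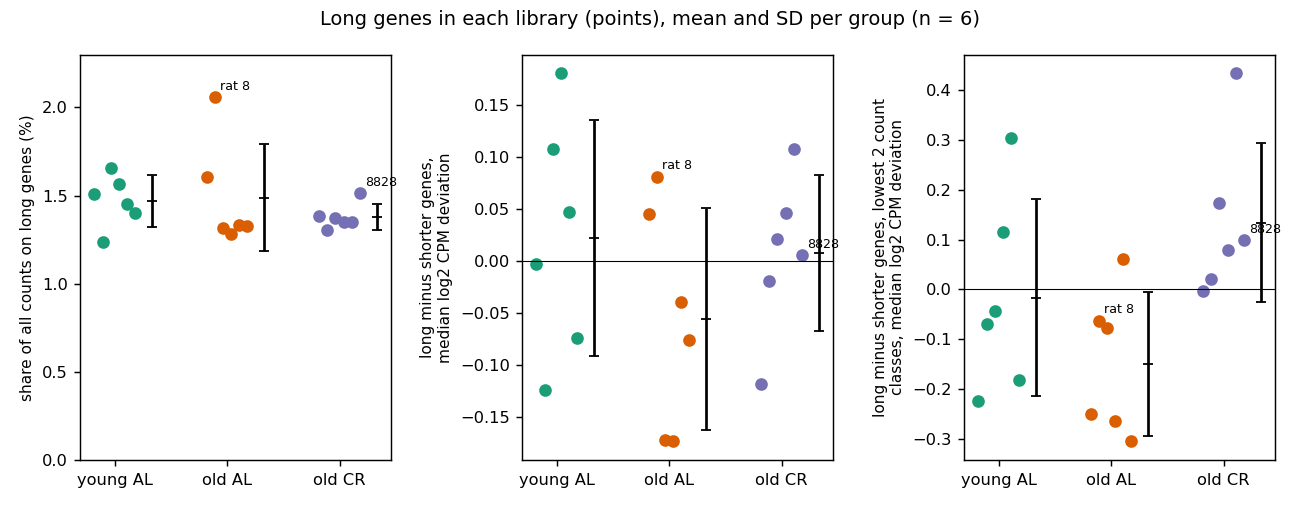
Points are libraries, with the group mean and SD (n = 6) beside them, for the percentage of counts on long genes, the median log2 CPM deviation of long minus matched shorter genes, and the same for the lowest 2 of 10 count classes. The 3 groups overlap in each panel, and rat 8 is the highest old AL library in the first panel at 2.06%.

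Neither did the change follow span in one direction over all classes. Between old AL and young AL rats the median log2 fold change fell from 0.04 in genes under 10 kb to -0.05 in genes of 50 to 100 kb and -0.08 in genes of 100 to 250 kb. It was -0.05 in genes of 250 to 500 kb, 0.06 in genes of 500 to 1000 kb and 0.04 in the 10 genes of 1000 kb or more. The lowest median of the 8 classes was thus in genes just shorter than the long ones. In this comparison the quartiles of every class spanned 0.

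For old CR against young AL rats the medians were 0.03 in the shortest class, -0.05 in genes of 100 to 250 kb, -0.00 in genes of 250 to 500 kb, 0.10 in genes of 500 to 1000 kb and 0.36 in genes of 1000 kb or more. In the last class 8 of the 10 genes were above 0, with quartiles of 0.14 and 0.58, and none was called. Between old CR and old AL rats the medians ran from -0.03 in the shortest class to 0.00 in genes of 100 to 250 kb and to 0.05, 0.06 and 0.08 in the 3 classes of long genes. In this comparison the 3 longest classes had the 3 highest medians, and the quartiles of the last class, 0.003 and 0.50, also lay above 0.

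**Figure D2:**
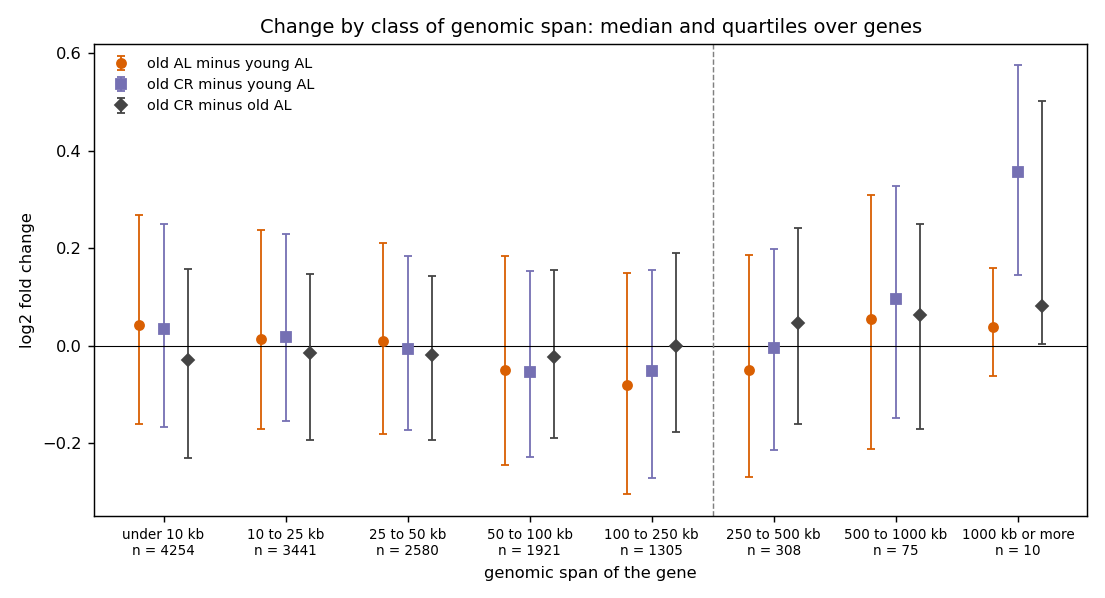
Median log2 fold change (points) with quartiles over genes (bars) in 8 classes of genomic span for the 3 comparisons; the dashed line marks 250 kb and n is the number of genes. In genes of 250 to 500 kb the medians are -0.05, -0.00 and 0.05, and the quartiles span 0.

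The differences between long and shorter genes were largest among scarce genes but were not confined to them. With 10 or more counts required in every library, which left 334 long genes, the difference was -0.04 between old AL and young AL rats. Between old CR and old AL rats it was 0.05 under that rule. With all long genes tested these values were -0.06 and 0.08. In the lowest of the 10 count classes, 40 long genes of 183 to 385 counts, the median log2 fold change between old AL and young AL rats was -0.12, and 0.13 in the 1227 shorter genes of that count class. Between old CR and young AL rats it was 0.23 against 0.09, and between old CR and old AL rats 0.50 against -0.06. Per library, the difference in this lowest class ran from -0.41 to 0.51 in young AL rats (median -0.13). It ran from -0.41 to 0.06 in old AL rats (median -0.20) and from -0.03 to 0.61 in old CR rats (median 0.03). The 0.61 belonged to library 8827, and the 3 groups overlapped. In the next class, 39 long genes of 387 to 798 counts, the 3 medians of the long genes were -0.06, 0.32 and 0.20, against 0.15, 0.16 and -0.07 in shorter genes. In old CR against old AL rats 27 of the 40 and 31 of the 39 long genes were above 0.

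In classes 4 to 6 the long genes were within 0.12 of the shorter genes in all 3 comparisons. In class 9, of 15993 to 28185 counts, 23.1% of long and 40.2% of shorter genes were above 0 between old AL and young AL rats. These shares were 20.5% and 40.3% between old CR and young AL rats, and 61.5% and 49.6% between old CR and old AL rats. In the highest class, from 29756 counts upwards, the medians between old AL and young AL rats were -0.17 in long and -0.10 in shorter genes, and between old CR and old AL rats 0.09 and 0.00. The per-library difference for the lowest 2 classes ran from -0.22 to 0.30 in young AL rats, from -0.31 to 0.06 in old AL rats and from -0.00 to 0.43 in old CR rats. The 0.43 belonged to library 8827, and a young AL rat, rat 5, reached 0.30. Old AL and old CR rats overlapped here, too.

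**Figure D3:**
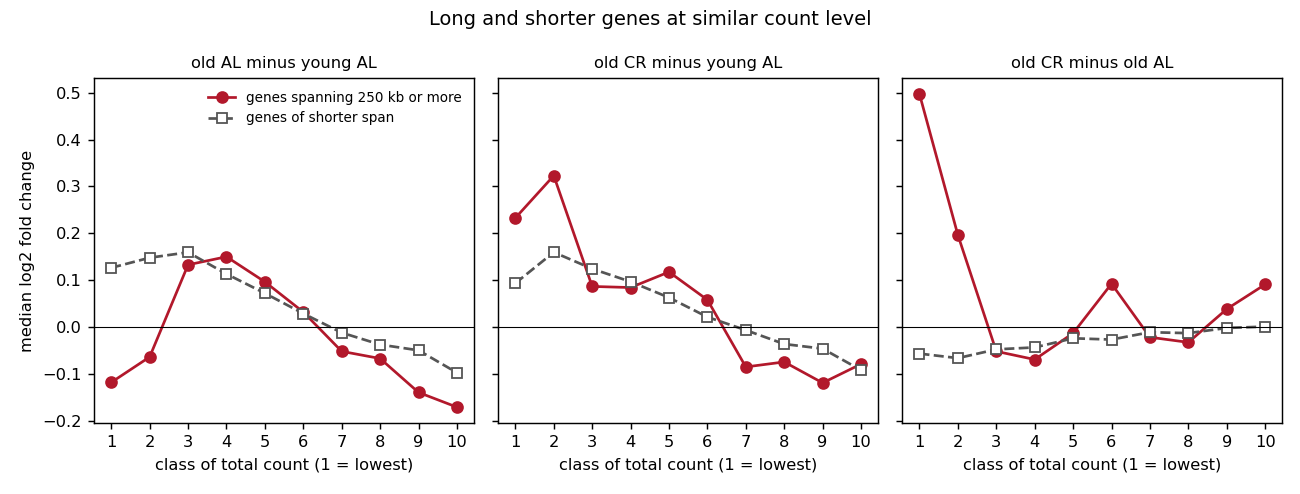
Median log2 fold change of long genes (filled circles) and shorter genes (open squares) in 10 classes of total count, 1 panel per comparison. The lines separate most in the lowest 2 classes, where the medians between old CR and old AL rats are 0.50 and 0.20 for long genes and -0.06 and -0.07 for shorter genes. Spread between libraries is not shown.

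Exon number and exon length were not used in the selection, whereas gaps between exons form part of the span that was, and in 20 long genes a single gap alone reached 250000 bases. Divided into 3 sets of similar size by number of exon blocks, the long genes had medians of -0.03, -0.05 and -0.01 between old AL and young AL rats, from few to many blocks. Between old CR and old AL rats these were -0.01, 0.10 and 0.07, so that the genes with fewest blocks had the lowest median. By exon length, from short to long, the medians were -0.03, -0.00 and -0.09 between old AL and young AL rats and 0.01, 0.06 and 0.08 between old CR and old AL rats. When the shorter genes were matched on exon length as well as count, the differences between long and shorter genes were -0.02, 0.02 and 0.06 in the 3 comparisons, and the first was thus less than 50% of its value with matching on count alone. Matching on counts per kilobase of exon instead gave -0.07, -0.01 and 0.08. By largest gap, the 3 sets had medians of -0.03, -0.03 and -0.05 between old AL and young AL rats and 0.04, 0.06 and 0.04 between old CR and old AL rats. The sets also differed in count, with a median total of 5898 in genes of small gaps and 2014 in genes of large gaps.

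In total 19 long genes were called at least once, 14 in 1 comparison and 5 in 2. These were 4.83% of the long genes tested, beside 5.37% of all genes called at least once. Another gene lay inside the span of 14 of these 19, and 1 of them shared exon bases with another gene. In whole muscle, fewer cells of a type and less RNA per cell cannot be told apart, which holds for each gene that follows. The groups also had separate blocks of library numbers, so that handling and group cannot be told apart either.

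The clearest change was in ENSRNOG00000032922, at chr2:144646308-144936927 on the plus strand, with 20 exon blocks over 290619 bases. Its level was 10.4, 13.6 and 20.9 CPM in young AL rats (lowest, median and highest), 39.3, 105 and 140 CPM in old AL rats, and 10.7, 20.5 and 32.0 CPM in old CR rats. Every old AL rat was above every rat of the other groups, while old CR and young AL rats overlapped. On the log2 scale the change was 2.80 (SE 0.29, adjusted p = 0.000159) in old AL against young AL rats and -2.24 (SE 0.28, adjusted p = 0.000539) in old CR against old AL rats by edgeR's quasi-likelihood test. Against young AL rats the old CR group gave 0.56 (SE 0.27, adjusted p = 0.272).

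ENSRNOG00000004821, at chr7:95397113-95669809 on the minus strand, had the opposite pattern. It had 7 exon blocks and a level of 42.6, 57.8 and 83.5 CPM in young AL rats, 11.0, 16.2 and 41.2 CPM in old AL rats, and 30.0, 44.6 and 49.8 CPM in old CR rats. Young AL and old AL rats did not overlap, but the old AL rat with the highest value, rat 8, lay within the range of the old CR rats. On the log2 scale the change was -1.60 (SE 0.27, adjusted p = 0.00376) in old AL against young AL rats and 1.09 (SE 0.27, adjusted p = 0.0429) in old CR against old AL rats. The second call was lost in 13 of the 27 alternative settings, for instance without rat 9 (adjusted p = 0.0849), and the first in none.

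The gene at chr9:30515089-30844199 was also called in both comparisons with old AL rats. It had 52 exon blocks within 329110 bases. The level was 1.63, 2.72 and 4.07 CPM in young AL rats, 1.99, 11.5 and 16.4 CPM in old AL rats and 1.49, 2.42 and 6.28 CPM in old CR rats. The old AL rats spread widely and overlapped both other groups. On the log2 scale the change was 1.89 (SE 0.45, adjusted p = 0.0229) in old AL against young AL rats and -1.80 (SE 0.44, adjusted p = 0.0433) in old CR against old AL rats. Without rat 9 neither difference was called, with adjusted p of 0.0558 and 0.0876.

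Another gene that was higher in old AL rats lay at chr4:154391647-154729310, with 92 exon blocks. Its level was 0.145, 1.73 and 9.53 CPM in young AL rats, 2.29, 55.6 and 238 CPM in old AL rats and 2.81, 5.84 and 23.6 CPM in old CR rats. The values spread over more than 10-fold within each group except the old CR group, and old AL and young AL rats overlapped. The log2 fold change in old AL against young AL rats was 4.80 (SE 1.0, adjusted p = 0.0119), and 3.99 (adjusted p = 0.0325) without rat 9, which had the value of 238 CPM. In old CR against old AL rats it was -3.12 (SE 0.91) and was not called (adjusted p = 0.0835).

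The next gene higher in old AL than in young AL rats was scarce. ENSRNOG00000021410, at chr2:262914327-263650441 with a span of 736114 bases, was at 1.12, 1.34 and 1.81 CPM in young AL rats, 1.48, 3.04 and 4.24 CPM in old AL rats and 1.77, 2.36 and 3.23 CPM in old CR rats. Its log2 fold change was 1.12 (SE 0.23, adjusted p = 0.0111) in old AL rats and 0.86 (SE 0.23, adjusted p = 0.0501) in old CR rats, so that the second value missed the threshold narrowly. Only the lowest old AL rat lay within the young AL range.

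The other 3 genes higher in old AL than in young AL rats did not pass the test in old CR against young AL rats, although the levels of both old groups overlapped. At chr15:32244416-32856430, with 8 other genes inside its span, the level was 1.21, 1.53 and 3.95 CPM in young AL rats and 2.99, 4.17 and 22.1 CPM in old AL rats (log2 2.22, SE 0.57, adjusted p = 0.0345). Old CR rats were at 2.06, 6.94 and 13.5 CPM (1.89 over young AL rats, SE 0.57, adjusted p = 0.0796). At chr13:110920737-111232269 it was 1.64, 3.07 and 4.49 CPM in young AL rats and 2.70, 8.68 and 10.8 CPM in old AL rats (1.29, SE 0.36, adjusted p = 0.0482). In old CR rats it was 2.39, 7.6 and 10.5 CPM (1.22, SE 0.36, adjusted p = 0.0746), and 5 of the 6 libraries lay above every young AL rat, library 8828 being the exception. At chr6:21203502-21600451 it was 52.3, 54.9 and 79.0 CPM and 62.6, 101 and 137 CPM (0.74, SE 0.19, adjusted p = 0.0343), with 59.7, 75.3 and 125 CPM in old CR rats (0.41, SE 0.19, adjusted p = 0.239). The old AL and young AL groups overlapped in all 3 genes, and their calls were lost in 6, 16 and 8 of 27 settings, among them leaving out rat 1 (adjusted p = 0.0729, 0.0891 and 0.0708).

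Of the genes lower in old AL rats, ENSRNOG00000001706 at chr11:69484293-70025633, with 60 exon blocks over 541340 bases, differed without overlap between old AL and young AL rats. It was at 62.8, 83.2 and 98.2 CPM in young AL rats, 43.7, 53.1 and 56.1 CPM in old AL rats and 44.8, 55.0 and 65.2 CPM in old CR rats. The log2 fold change was -0.69 (SE 0.12, adjusted p = 0.00402) in old AL rats. In old CR rats it was -0.58 (SE 0.12, adjusted p = 0.0116), which fell just short of the 1.5-fold minimum, a log2 of 0.585.

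Lower in both old groups was the gene at chr12:44213943-44520341, the 1 long gene called in both comparisons with young AL rats. Its level was 26.2, 44.5 and 83.5 CPM in young AL rats, 16, 25.3 and 34.4 CPM in old AL rats and 16.1, 21.6 and 33 CPM in old CR rats. The young AL rats overlapped both old groups. The log2 fold change was -1.0 (SE 0.26, adjusted p = 0.0386) in old AL rats and -1.15 (SE 0.26, adjusted p = 0.0254) in old CR rats. The former call was lost in 10 of 27 settings and the latter in 5, both of them without rat 3 (adjusted p = 0.0994 and 0.0633).

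The last 3 genes lower in old AL rats fell by less. The gene at chr20:20105047-20480623 was at 90.7, 117 and 190 CPM in young AL rats and 63.7, 82.8 and 99.6 CPM in old AL rats (log2 -0.65, SE 0.18, adjusted p = 0.0448). That at chr8:14417584-14880644 was at 3.37, 4.80 and 5.64 CPM and 2.32, 2.90 and 3.56 CPM (-0.64, SE 0.17, adjusted p = 0.0364). That at chr6:123187726-123577695 was at 51.8, 73.7 and 99.8 CPM and 43.1, 49.3 and 57.6 CPM (-0.60, SE 0.15, adjusted p = 0.0347). All 3 overlapped between the groups, and their calls were lost in 17, 9 and 13 of 27 settings.

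**Figure D4:**
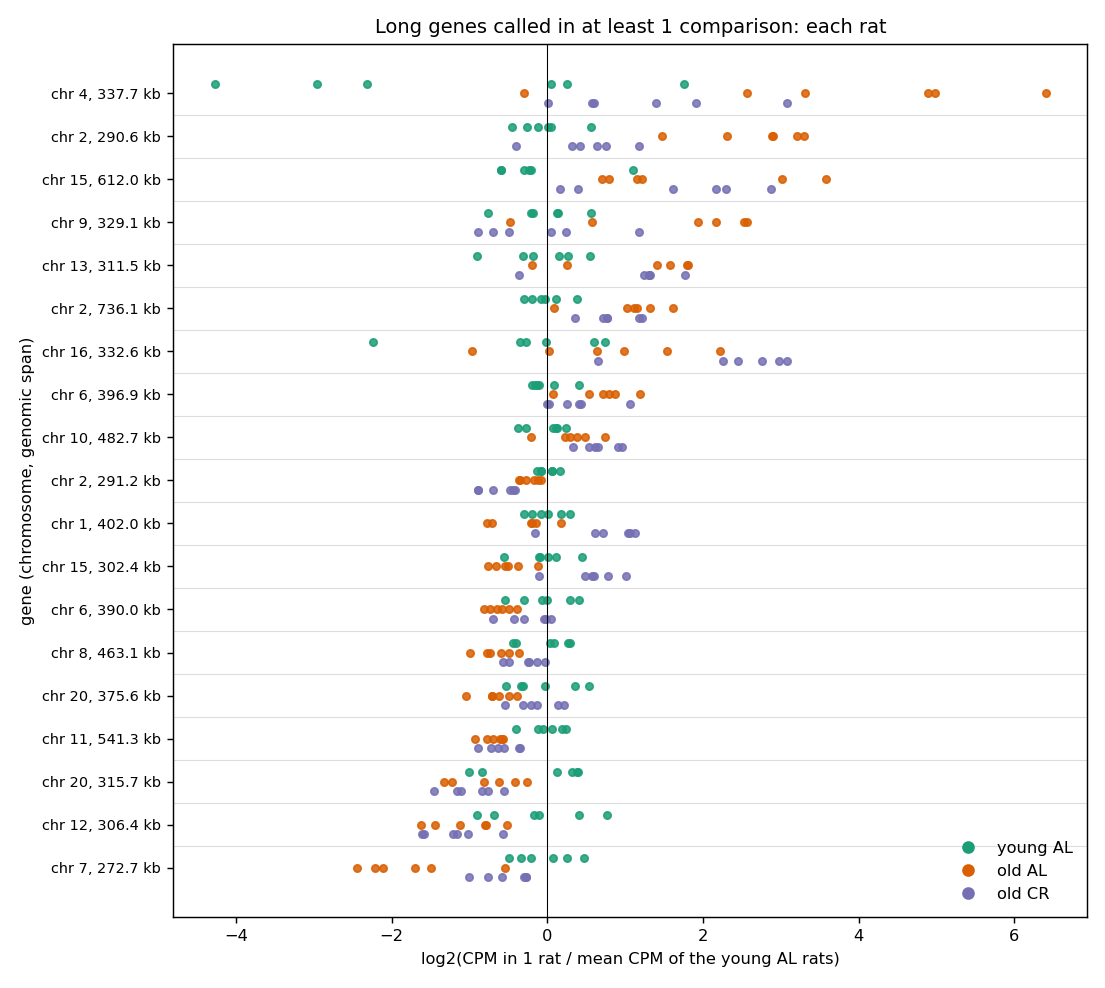
Each point is 1 rat, as log2 of its CPM over the mean CPM of the young AL rats, for the 19 long genes called in at least 1 comparison, ordered by the log2 fold change of old AL against young AL rats. In the chromosome 2 gene in row 2 from the top all old AL rats lie right of all other rats, and in the chromosome 7 gene at the bottom all old AL rats lie left of all young AL rats.

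In old CR rats 2 genes were higher than in old AL rats without a call for old AL against young AL rats. The gene at chr15:12926167-13228607, with 32 exon blocks, was at 45.1, 64.5 and 90.1 CPM in young AL rats, 38.9, 45.9 and 60.9 CPM in old AL rats and 61.7, 99.5 and 134 CPM in old CR rats. Old CR and old AL rats did not overlap, with a log2 fold change of 1.08 (SE 0.17, adjusted p = 0.00386). The gene at chr1:41192824-41594796 was at 7.66, 9.16 and 11.5 CPM in young AL rats, 5.48, 8.17 and 10.6 CPM in old AL rats and 8.39, 17.4 and 20.6 CPM in old CR rats. It was called against old AL rats (1.06, SE 0.20, adjusted p = 0.0112) and against young AL rats (0.79, SE 0.20, adjusted p = 0.0370). The latter call was lost in 11 of 27 settings. It shared exon bases with 1 gene on the same strand, and the way in which reads were divided between them was not tested.

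Another 4 genes were called in old CR against young AL rats alone. The gene at chr2:155718359-156009526 was at 17.5, 19.1 and 21.5 CPM in young AL rats, 14.9, 16.5 and 18.3 CPM in old AL rats and 10.4, 12.8 and 14.5 CPM in old CR rats. Every old CR rat was below every rat of the other groups. The log2 fold change was -0.62 (SE 0.10, adjusted p = 0.00260) against young AL rats and -0.40 (SE 0.10, adjusted p = 0.0516) against old AL rats.

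The gene at chr10:96663740-97146424 was at 2.40, 3.30 and 3.66 CPM in young AL rats and 3.9, 4.81 and 6.02 CPM in old CR rats, without overlap (log2 0.68, SE 0.17, adjusted p = 0.0370). The gene at chr20:21564975-21880715 was at 17.8, 41.5 and 46.7 CPM in young AL rats and 13, 18.2 and 24.3 CPM in old CR rats, with overlap (-0.95, SE 0.25, adjusted p = 0.0469). Old AL rats ran from 2.68 to 5.18 CPM in the chr10 gene and from 14.2 to 29.7 CPM in the chr20 gene. The gene at chr16:11599753-11932324 had only 260 counts in all and was at 0.0484, 0.207 and 0.381 CPM in young AL rats and 0.360, 1.39 and 1.92 CPM in old CR rats (2.48, SE 0.51, adjusted p = 0.0129). Its groups overlapped by the lowest old CR rat. Old AL rats ran from 0.117 to 1.06 CPM in this gene. It met the minimum of 180 counts only through the counts of the old CR rats, the group called higher. Its choice and its call thus rest on the same counts, so its adjusted p is not an independent test and no conclusion is drawn from it. The calls at chr10 and chr20 were lost in 11 and 13 of 27 settings. That at chr16 was lost in none of the 24 settings that tested it, which does not remove the limit set by its choice.

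Several genes that were not called for want of a 1.5-fold change nevertheless separated old CR from old AL rats, and are named after their values were seen. The gene at chr9:114846095-115555261 was at 74.1, 83.1 and 96.3 CPM in young AL rats, 53.5, 66.2 and 78.0 CPM in old AL rats and 86.6, 94.1 and 107 CPM in old CR rats (log2 0.50, SE 0.10, adjusted p = 0.0180). The gene at chr18:5032029-5314585 was at 22.5, 24.3 and 27.5 CPM in old AL rats and 30.4, 35.9 and 40.4 CPM in old CR rats (0.54, SE 0.11, adjusted p = 0.0164). In the other direction, the gene at chr4:72792252-73174179 was at 6.58, 6.99 and 8.60 CPM in old AL rats and 4.55, 4.97 and 5.42 CPM in old CR rats (-0.55, SE 0.12, adjusted p = 0.0267).

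Rat 8 of the old AL group and library 8828 of the old CR group stood apart, about as often in shorter as in long genes. Besides them only rat 9 was examined by the rule that follows. Of all 18 libraries, rat 8 had the highest value in 101 long genes, or 25.7%, beside 20.8% of shorter genes. The TMM factor of rat 8, 1.44, was also the highest. Rat 3 of the young AL group was highest in 61 long genes, or 15.5% beside 12.0%, and library 8828 in 18, or 4.58% beside 5.35%. In rat 8, 40 of the 393 long genes were at 1 CPM or more and at least 2 times every other old AL rat, or 10.2%, beside 9.10% of the matched shorter genes. In library 8828 this held for 15 long genes, or 3.82% beside 4.80%, and 14 of these were among the 40. Of the 40 genes, 32 had their highest old CR value in library 8828, or 80%, beside 87.9% of the matched shorter genes that stood apart in rat 8 in the same way. For comparison, rat 9 had 2 long genes at least 2 times every other old AL rat, or 0.509%, beside 0.867% of the matched shorter genes.

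The most extreme was the gene at chr6:138054662-138662511, with 12 other genes inside its span. It reached 824 CPM in rat 8, against an old AL median of 2.91, and 445 CPM in library 8828, against an old CR median of 1.17, while no young AL rat exceeded 1.40 CPM. Its fitted log2 fold change of 7.21 in old AL against young AL rats had an SE of 2.24 and was not called (adjusted p = 0.0718). The gene at chr2:241273763-241545250 reached 48.9 CPM in rat 8 against an old AL median of 0.508, and 16.9 CPM in the highest old CR library against a median of 0.197. What these libraries share was not tested.

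**Figure D5:**
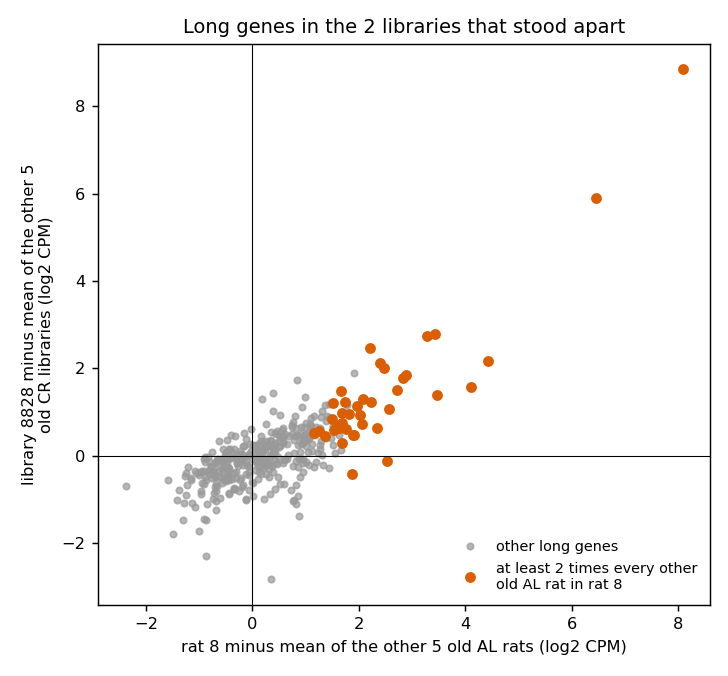
Each point is a long gene, placed by its log2 CPM in rat 8 less the mean of the other old AL rats (horizontal) and in library 8828 less the mean of the other old CR libraries (vertical). The 40 coloured genes were at least 2 times every other old AL rat in rat 8, and the 2 at the upper right lie at chr 6 and chr 2.

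Spread between rats was somewhat larger in long than in shorter genes at the same count level. The median SD of log2 CPM within a group was 0.333 in long and 0.291 in matched shorter genes of young AL rats, 0.429 and 0.373 in old AL rats, and 0.310 and 0.275 in old CR rats. Without rat 8 the old AL values were 0.306 and 0.267, and without library 8828 the old CR values were 0.255 and 0.231. The order of long and shorter genes was the same in each group with and without these libraries.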

How the data were processed

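The deposited values were raw counts per gene and library. Per the labels and file header, the authors depleted ribosomal RNA, made strand-specific libraries, trimmed with cutadapt 1.2.1, aligned to Rnor_6.0 with STAR 2.3.0e and counted on Ensembl release 96 with featureCounts 1.6.4, whose recorded command set no strand option. All 18 count columns were used: 15 matched 1 rat, and 3 old CR columns, whose 2 numbers belong to different rats, matched the group only and are called libraries 8826, 8827 and 8828. Unmatched columns numbered 0.

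Spans were taken from the exon positions in the table. Members and lists were chosen with earlier results of these data known. Counts were fitted in edgeR 4.0.16 (R 4.3.3; filterByExpr, TMM scaling, quasi-likelihood test, all 18 libraries, Benjamini-Hochberg adjustment over 14646 genes), after the procedure was tested on simulated data. Log2 CPM used a prior count of 2. Genes named were those called, the 10 highest per kb of exon, the 5 longest, those at the span minimum and the 2 with too few counts for the test, with 5 more chosen after their values were seen (3 that separated old CR from old AL rats and 2 high in rat 8); planned symbol-based gene lists, markers and promoters could not be applied. DESeq2 1.42.0, other scalings, filters, thresholds, spans and samples were alternatives. Library totals of 17335401 to 27432767 counts set the precision of scarce genes.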

Additional observations from a re-analysis of the deposited data

Results flagged for a closer look

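In 9 of 72 groups of 6 values checked, 1 library lay farther from the others than Dixon's 95% limit allows. For independent normal values that limit gives about 1 in 20, or 3.6. The values here were mostly CPM without logarithm, from the same libraries and from genes picked for their calls. The 3.6 is thus no measure of chance for these sets. The gap to the nearest library over the group's range is given for each. At chr4:154391647-154729310 it was 0.659 in young AL rats (rat 3, 9.53 CPM against 3.34), 0.633 in old AL rats (rat 9, 238 CPM against 88.8) and 0.629 in old CR rats (rat 13, 23.6 CPM against 10.5). At chr15:32244416-32856430 it was 0.864 in young AL rats (rat 4, 3.95 CPM against 1.58). At chr7:95397113-95669809 it was 0.655 in old AL rats (rat 8, 41.2 CPM against 21.4). Rat 14 lay highest of the old CR rats at chr6:21203502-21600451 (0.683, 125 CPM against 80.4) and at chr9:30515089-30844199 (0.628, 6.28 CPM against 3.27). The share of counts on long genes was highest in library 8828 among old CR rats (0.625, 1.52% against 1.38%), and the share without the 5 genes with most counts was highest in rat 8 among old AL rats (0.628, 1.73% against 1.22%).

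The change from young AL rats differed between the old CR and old AL groups in 5 long genes by edgeR's quasi-likelihood test, which for this contrast is the comparison of old CR with old AL rats. The log2 difference was 1.06 at chr1:41192824-41594796 (adjusted p = 0.0112), -2.24 at chr2:144646308-144936927 (0.000539), 1.09 at chr7:95397113-95669809 (0.0429), -1.80 at chr9:30515089-30844199 (0.0433) and 1.08 at chr15:12926167-13228607 (0.00386).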

How the results depend on the processing

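Counts of called long genes depended on the tool and on single libraries, while none of the 644 values of the 24 named differences reversed (491 kept their call, 153 lost it). In the order old AL against young AL, old CR against young AL and old CR against old AL, where 13, 6 and 5 were called, DESeq2 called 26, 15 and 12 with all libraries (5.8%, 4.08% and 2.98% of all genes) and 23, 19 and 10 with only the 2 groups compared (4.71%, 5.73% and 2.95%), and edgeR with only those groups called 8, 11 and 3 (1.83%, 3.13% and 0.917%). Leaving out 1 library gave 6 (without rat 3; 2.18% of all genes) to 24 (without rat 2, 6 higher and 18 lower; 4.37%), 2 (without rat 3; 1.26%) to 16 (without rat 8; 3.92%) and 3 (without rat 5; 1.23%) to 10 (without rat 8; 2.61%). Rat 8 in the second comparison and rat 5 in the third belong to neither group compared. They act only through the filter, scaling and spread shared in the fit. Without rat 8 and library 8828 together the counts were 21, 13 and 11 (4.83%, 3.11% and 3.26%). An adjusted p of at most 0.01 left 3, 1 and 2 (0.847%, 0.731% and 0.3% of all genes), and dropping the fold minimum gave 13, 9 (3 higher and 6 lower) and 9 (6 and 3), beside 4.33%, 2.7% and 1.85%. Beside 3.39%, 1.98% and 1.38% of all genes, a span minimum of 200000 bases gave 20, 7 and 7 of 588 genes tested, one of 500000 gave 3, 0 and 0 of 85, one of 1000000 gave 0 of 10 in each, and leaving out the 23 genes that share exon bases, chosen after seeing the data, gave 13, 5 and 4 of 370. Scaling by total counts moved the median of all genes to 0.18 in old AL against young AL rats and split the calls there into 7 higher and 2 lower (3.18% of all genes); in old CR against young AL rats it called 3, 1 higher and 2 lower (1.63%), and in old CR against old AL rats, where it moved the median of all genes to -0.19, 6, 1 higher and 5 lower (1.82%). Upper quartile scaling split the calls of the first 2 comparisons into 7 and 3, and 6 and 1 (3.43% and 2.14%). All shares of all genes given here count both directions together. The difference between long and matched shorter genes, leaving out 1 library at a time, was -0.11 (without rat 8) to -0.01 (without rat 4), -0.03 to 0.04 and 0.04 (without rat 10) to 0.11 (without rat 8), and matched on exon length too it was -0.02, 0.02 and 0.06, and matched on counts per kilobase of exon -0.07, -0.01 and 0.08. With a span minimum of 500000 bases it was 0.02, 0.09 and 0.09, and with one of 1000000 bases 0.01, 0.33 and 0.10, so that the first comparison changed sign at both. The mean share of all counts was 1.47%, 1.49% and 1.38% in young AL, old AL and old CR rats. Without the 5 genes with most counts it was 1.06%, 1.14% and 1.01% in the same order. Over chromosomes 1 to 20 only it was 1.58%, 1.59% and 1.52%. The cause of these changes was not tested. No paired analysis was possible because the groups share no replicate numbers.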
